A study of Mus musculus with 6 samples.

Results

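The Schlafen family was examined in infarcted mouse hearts with and without the TSLP receptor. The 7 members, Slfn1, Slfn2, Slfn3, Slfn4, Slfn5, Slfn8 and Slfn9, were taken by gene symbol from the 54532 genes of the table. The family was selected on its higher values in Crlf2-/- than in WT hearts in these same libraries, so differences between the groups are given as a description, with no test. Bulk RNA sequencing covered the infarct and its border zone in hearts of 3 WT and 3 Crlf2-/- mice (TSLPR KO in the labels), on day 7 after ligation of the left anterior descending coronary artery, with 1 library per mouse. The strain was C57BL/6 in the labels and C57BL/6J in the methods of the study, and no sham-operated or untreated hearts were among the samples. By the methods, young adult male C57BL/6J mice were bought from a breeder and the knockout was made by another company. Whether the WT hearts sequenced here came from the bought mice or from the knockout colony was not stated. The knockout was not restricted to a cell type, and the sex and age of the Crlf2-/- mice were not given separately.

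Schlafen genes encode proteins with a shared N-terminal core, and several of them cleave or bind tRNA and slow the growth of cells. Many are induced by interferons, the cytokines that set cells into an antiviral state, and they are best known from T cells, monocytes and macrophages. In mice they are sorted by size into short proteins (Slfn1 and Slfn2), intermediate proteins (Slfn3 and Slfn4) and long proteins with a helicase-like C-terminal part (Slfn5, Slfn8 and Slfn9).

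The 7 genes lay together on chromosome 11 (GRCm38), within 264 kb from 82951349 to 83215154. Slfn5 (ENSMUSG00000054404) came first, from 82951349 to 82964840 on the plus strand. It was followed by Slfn9 (ENSMUSG00000069793, 82978390 to 82991830) and Slfn8 (ENSMUSG00000035208, 83002158 to 83020810), both on the minus strand. The others were on the plus strand, namely Slfn2 (ENSMUSG00000072620, 83065112 to 83070678), Slfn1 (ENSMUSG00000078763, 83116849 to 83122670), Slfn4 (ENSMUSG00000000204, 83175186 to 83190216) and Slfn3 (ENSMUSG00000018986, 83191330 to 83215154). The longest coding sequence in GENCODE M21 held 337 codons for Slfn1, 378 for Slfn2, 640 for Slfn3, 602 for Slfn4, 884 for Slfn5 and 910 for each of Slfn8 and Slfn9. Coding sequences were most alike between Slfn8 and Slfn9, with 92.7% identical bases over 2730 aligned bases, and between Slfn3 and Slfn4, with 92.3% over 1785 aligned bases. In the other pairs identity was between 61.2% and 76.9%. Windows of 100 bases found without a mismatch in another member made up 1.28% of the Slfn8 transcript and 0.882% of the Slfn9 transcript. They made up 0.128% of Slfn2 and 0.0518% of Slfn4, and none were found for Slfn1, Slfn3 and Slfn5. The alignment settings of the study were not known here, so the values of Slfn8 and Slfn9 are less certain where fragments lay in such windows.

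The start regions of the genes were read next, because interferons act on many of their target genes through a short DNA element there. Windows of 300 bases, from 250 before to 50 after each RefSeq start site (GRCm38.p6), were available for 7 of 7 members. The interferon-stimulated response element was searched on both strands as GAAANNGAA followed by a further A. It was found in the windows of 3 of 7 members, the long ones Slfn5, Slfn8 and Slfn9, where 3.44% of all 32851 windows held it. It began 155 bases before the start of Slfn5, 48 before the upstream of 2 listed starts of Slfn8 and 45 before that of Slfn9. Stretches of 120 bases around the match are shown 5′ to 3′ on the strand of each gene, to set the 3 matches side by side, with the match in capitals. They lie at chr11:82951892-82952011 (plus strand), chr11:83020794-83020913 (minus strand) and chr11:82991811-82991930 (minus strand).
Slfn5: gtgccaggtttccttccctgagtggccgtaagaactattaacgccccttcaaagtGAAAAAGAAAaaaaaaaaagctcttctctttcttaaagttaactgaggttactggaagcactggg
Slfn8: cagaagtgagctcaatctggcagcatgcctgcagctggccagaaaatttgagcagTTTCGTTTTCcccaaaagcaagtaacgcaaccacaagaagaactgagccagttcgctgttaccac
Slfn9: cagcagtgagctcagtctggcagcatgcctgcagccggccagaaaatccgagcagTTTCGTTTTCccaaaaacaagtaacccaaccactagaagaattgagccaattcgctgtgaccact

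The match had the same letters in Slfn8 and Slfn9 and lay on the strand opposite to the gene, whereas that of Slfn5 lay on the strand of the gene. Over these stretches Slfn8 and Slfn9 shared 108 of 119 aligned bases. The RefSeq start of Slfn5 lay 753 bases inside the start given in the table. The gamma-activated site, searched as TTCNNNGAA, was found in 0 of 7 members and in 8.30% of all windows. Slfn1 and Slfn4 had the largest differences between the groups and no match for either motif. Their whole windows are shown for that reason, at chr11:83116570-83116869 and chr11:83174936-83175235, both on the plus strand.
Slfn1: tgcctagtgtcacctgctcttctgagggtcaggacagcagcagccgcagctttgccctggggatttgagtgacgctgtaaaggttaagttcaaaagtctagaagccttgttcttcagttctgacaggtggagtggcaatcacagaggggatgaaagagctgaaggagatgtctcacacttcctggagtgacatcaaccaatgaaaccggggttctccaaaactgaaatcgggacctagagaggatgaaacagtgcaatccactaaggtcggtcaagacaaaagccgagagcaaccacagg
Slfn4: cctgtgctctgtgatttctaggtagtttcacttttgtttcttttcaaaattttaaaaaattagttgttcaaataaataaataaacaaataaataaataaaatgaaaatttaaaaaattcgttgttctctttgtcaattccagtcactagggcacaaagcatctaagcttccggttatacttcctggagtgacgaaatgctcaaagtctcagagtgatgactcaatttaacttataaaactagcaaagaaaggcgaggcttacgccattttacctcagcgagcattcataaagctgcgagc

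No match means only that these letters were not in these windows. Among the interferon effectors described further on, 22 of 30 genes had windows, and 13 of their 24 windows (54.2%) held the response element.

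Libraries of WT mice held 18508646 to 18973594 fragments on genes, and those of Crlf2-/- mice held 18578175 to 19682428. The targeted gene Crlf2, which encodes the receptor chain for TSLP, was at 26.6, 25.1 and 21.6 FPKM in WT and at 13.2, 18.7 and 19.8 FPKM in Crlf2-/- libraries. It was thus lower in each Crlf2-/- library but not absent, and a value for a whole gene cannot tell which exons were read (log2 fold change -0.51, SE 0.16, adjusted p = 0.528 from limma). The heart muscle gene Actc1 was present in all 6 libraries, and the summed level of 10 cardiomyocyte markers ranged from 1397 to 2506 FPKM in WT and from 935 to 1761 FPKM in Crlf2-/- libraries. FPKM scales fragments to the length of a gene and the size of a library, so levels of different genes can be set side by side.

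All 7 members were read in all 6 libraries, with at least 67 fragments each, and all 7 passed the filter on low genes. Slfn2 was the most abundant member and Slfn3 the least abundant in both groups. Summed over the family, the level was 99.1, 72.1 and 88.0 FPKM in the 3 WT libraries and 120, 158 and 135 FPKM in the 3 Crlf2-/- libraries. The sums did not overlap between the groups. In 5 of 7 members, namely Slfn1, Slfn4, Slfn5, Slfn8 and Slfn9, every Crlf2-/- library lay above every WT library, where 5.24% of the 15520 genes tested did. The median log2 fold change of the 7 members was 0.78, and that of all genes tested was -0.00048. In bulk tissue, a different number of cells of a type and a different amount of RNA per cell cannot be told apart.

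**Figure D1:**
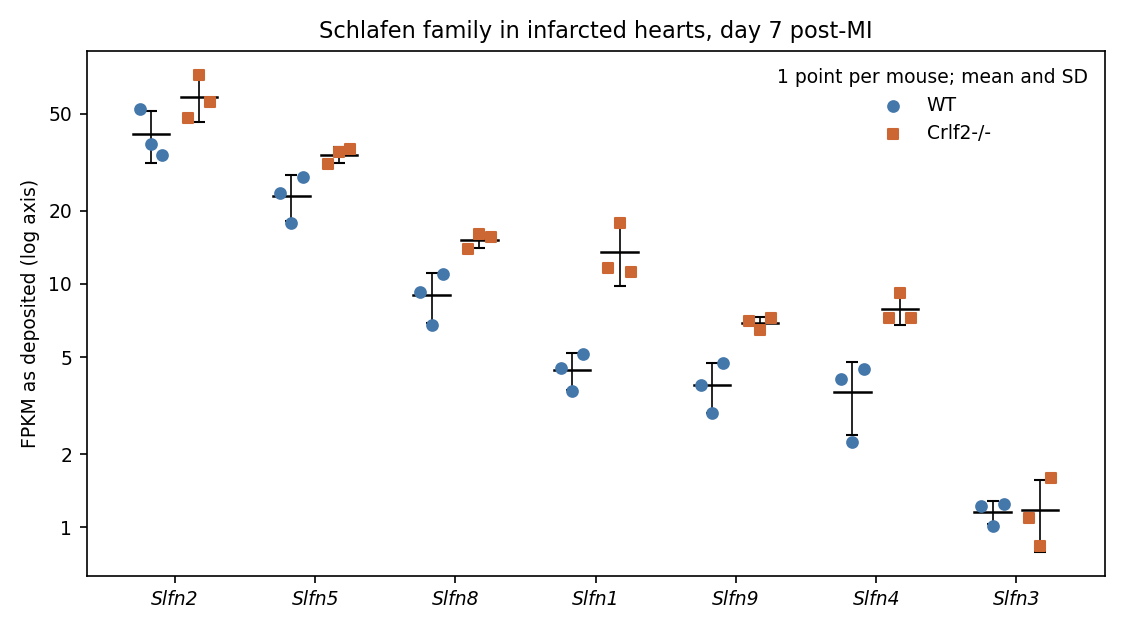
FPKM of each Schlafen member (log axis) in 3 WT hearts (circles) and 3 Crlf2-/- hearts (squares), 1 point per mouse, with the mean as a line and the SD as bars. The squares of Slfn1, Slfn4, Slfn5, Slfn8 and Slfn9 all lie above the circles, those of Slfn2 and Slfn3 overlap them, and Slfn2 is the highest member in both groups.

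Among the short members, Slfn1, first described as a brake on the growth of developing T cells, had the largest difference. It was at 4.52, 3.64 and 5.15 FPKM in the WT libraries and at 11.6, 17.9 and 11.2 FPKM in the Crlf2-/- libraries. The lowest Crlf2-/- library was 2.17 times the highest WT library, and Crlf2-/- replicate 2 was the highest of all. Its mean was 4.44 ± 0.76 FPKM (SD, n = 3) for WT hearts, against 13.5 ± 3.75 FPKM (SD, n = 3) for Crlf2-/- hearts. The log2 fold change was 1.58 (SE 0.20).

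Slfn2, which keeps T cells and monocytes in a resting state, was at 52.5, 37.6 and 33.9 FPKM in WT and at 48.1, 72.5 and 56.0 FPKM in Crlf2-/- libraries. The groups overlapped, because WT replicate 1 lay above Crlf2-/- replicate 1. Its log2 fold change was 0.52 (SE 0.20), and leaving out WT replicate 1 gave 0.71, where leaving out Crlf2-/- replicate 2 gave 0.36. The ratio of Slfn1 to Slfn2 FPKM was 0.0861, 0.0967 and 0.152 in WT and 0.241, 0.247 and 0.200 in Crlf2-/- libraries. This ratio did not overlap between the groups. It is built from values on which the family was selected, so it is only a description.

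The intermediate members Slfn3 and Slfn4 are neighbours with closely alike coding sequences. Slfn4, a gene of myeloid cells, was at 4.09, 2.24 and 4.47 FPKM in WT and at 7.27, 9.21 and 7.23 FPKM in Crlf2-/- libraries. WT replicate 2 was the lowest, and the lowest Crlf2-/- library was 1.62 times the highest WT library. The log2 fold change of Slfn4 was 1.17 (SE 0.25), the second largest of the family, and it was 0.86 without WT replicate 2.

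Slfn3 was at 1.22, 1.01 and 1.25 FPKM in WT and at 1.10, 0.842 and 1.60 FPKM in Crlf2-/- libraries. Its log2 fold change was -0.01 (SE 0.24), and the Crlf2-/- libraries spread both below and above the WT range. These values rest on 67 to 123 fragments per library. In Slfn4, between 192 and 852 fragments were counted.

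The long members had smaller differences than Slfn1 and Slfn4, and less spread among Crlf2-/- mice. Slfn5 was at 23.7, 17.8 and 27.6 FPKM in WT and at 31.2, 34.8 and 35.8 FPKM in Crlf2-/- libraries, with a log2 fold change of 0.59 (SE 0.16). Its lowest Crlf2-/- library was 1.13 times its highest WT library, the narrowest gap among the members whose groups did not overlap. Without WT replicate 2, the lowest, the log2 fold change of Slfn5 was 0.41.

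Slfn8, which lies in a region linked to autoimmune disease of the brain in mice, was at 9.29, 6.81 and 10.9 FPKM in WT and at 14.0, 16.0 and 15.6 FPKM in Crlf2-/- libraries. Its log2 fold change was 0.78 (SE 0.17). Slfn9 was at 3.86, 2.96 and 4.72 FPKM in WT and at 7.01, 6.49 and 7.24 FPKM in Crlf2-/- libraries, with a log2 fold change of 0.86 (SE 0.17). The coefficient of variation of the 3 long members was between 21.3% and 23.1% in WT and between 5.55% and 7.17% in Crlf2-/- mice.

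The order of levels differed between the groups in its middle part. In WT hearts it ran Slfn2, Slfn5, Slfn8, Slfn1, Slfn9, Slfn4 and Slfn3, and the ranges of neighbours overlapped only for Slfn1 with Slfn9 and for Slfn9 with Slfn4. In Crlf2-/- hearts it ran Slfn2, Slfn5, Slfn8, Slfn1, Slfn4, Slfn9 and Slfn3, and the ranges overlapped only for Slfn8 with Slfn1 and for Slfn4 with Slfn9. Slfn1 thus lay below the range of Slfn8 in WT and within reach of it in Crlf2-/- hearts. As a share of the summed family level, Slfn1 held 5.15% ± 0.656 (SD, n = 3) in WT and 9.76% ± 1.51 (SD, n = 3) in Crlf2-/- mice. Slfn2 held 47.9% ± 8.11 (SD, n = 3) and 42.5% ± 3.08 (SD, n = 3), with overlapping ranges.

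The other Schlafen genes of the table were little expressed. The pseudogene Slfn10-ps, which lies inside the cluster, was at 1.13, 0.854 and 1.59 FPKM in WT and at 1.95, 1.36 and 1.61 FPKM in Crlf2-/- libraries. Its groups overlapped (log2 fold change 0.46, SE 0.24, adjusted p = 0.841 from limma). Slfn14, a gene of platelet and red cell precursors, had 0, 0 and 1 fragments in the WT libraries, against 7, 0 and 2 in the Crlf2-/- libraries. Slfnl1 on chromosome 4 was at 0 in all 6 libraries, which allows up to 0.0786 FPKM at a limit of 3 fragments per library, by counting error only. Slfn5os, an antisense transcript that overlaps Slfn5, had at most 3 fragments in a library. Counting by strand was not stated, and the overlapping antisense gene of Slfn2, Gm20234, reached 0.363 FPKM at most.

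Genes around the cluster were compared to see whether the higher values extended along the chromosome. Of 60 other listed genes within the cluster or 500 kb to either side, 26 were tested. Only 2 of these lay inside the cluster, Slfn10-ps and the pseudogene Gm11425 (log2 fold change 0.65, adjusted p = 0.814 from limma). Every Crlf2-/- library lay above every WT library for 0 of the 26, where 5.24% of all genes tested did. With so few genes, a count of 0 is close to that share. The 24 tested genes outside had log2 fold changes between -0.84 and 0.51 with a median of -0.08. The lowest was the T cell chemokine gene Ccl5, with a mean of 11.2 ± 2.49 FPKM (SD, n = 3) for WT hearts, against 6.10 ± 0.757 FPKM (SD, n = 3) for Crlf2-/- hearts (adjusted p = 0.255 from limma). It was the only tested neighbour whose Crlf2-/- libraries all lay below the WT libraries, where 6.45% of all genes tested did.

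**Figure D2:**
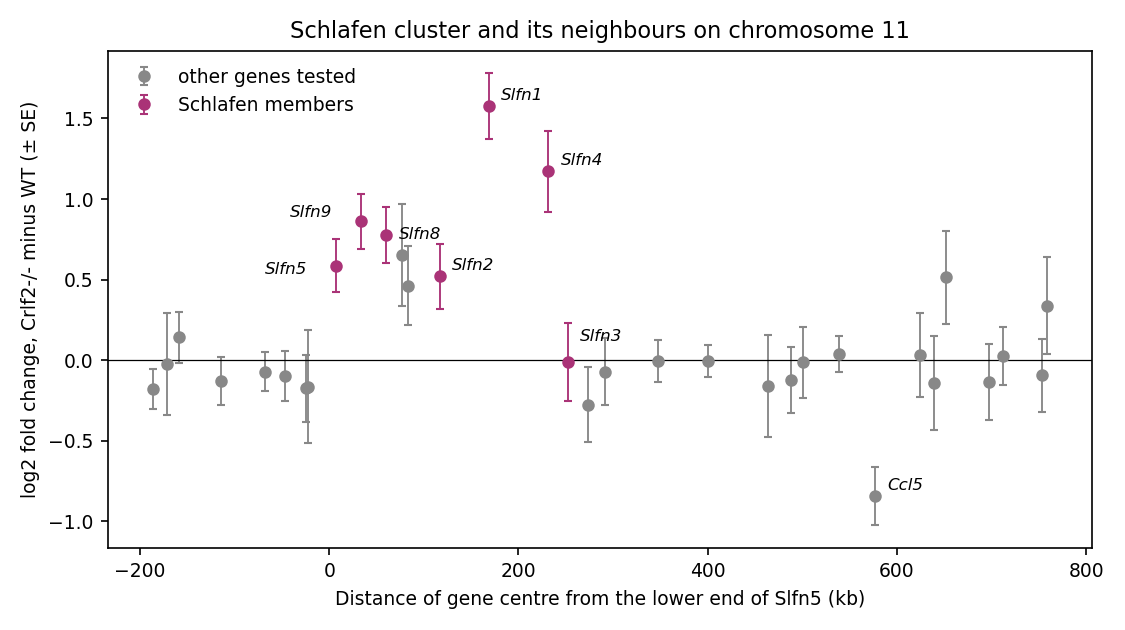
Log2 fold change (Crlf2-/- minus WT, bars ± SE from limma) of the tested genes in and around the cluster, against the distance of the gene centre from the lower end of Slfn5 in kb. Members are purple and other genes grey. From Slfn5 to Slfn4 the members lie between 0.52 and 1.58, Slfn3 lies at -0.01, and genes outside the cluster lie between -0.84 (Ccl5) and 0.51.

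Several members also varied together around their group means over the 6 libraries. After the mean of each group was taken away, the deviations of Slfn5 and Slfn8 over the 6 libraries had a Pearson's r of 0.994, those of Slfn5 and Slfn9 one of 0.919, and those of Slfn4 and Slfn8 one of 0.938. The deviations of Slfn1 and Slfn4 had an r of 0.798. Slfn2 stood apart from the long members, with r between -0.21 and 0.14. Slfn3 had r between -0.46 and 0.53 with the other members. Over all 21 pairs the median r was 0.78 with the group difference left in and 0.47 without it. These are descriptions over 6 libraries that share depth and tissue dissection. The deviations of Slfn5, Slfn8, Slfn9 and Slfn4 were largest in WT replicate 2, which was low, and in WT replicate 3, which was high. Among the Crlf2-/- libraries, Slfn9 deviated by 0.03, -0.09 and 0.07, and Slfn4 by -0.11, 0.22 and -0.12. Slfn9 and Slfn4 thus moved in opposite directions within that group.

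**Figure D3:**
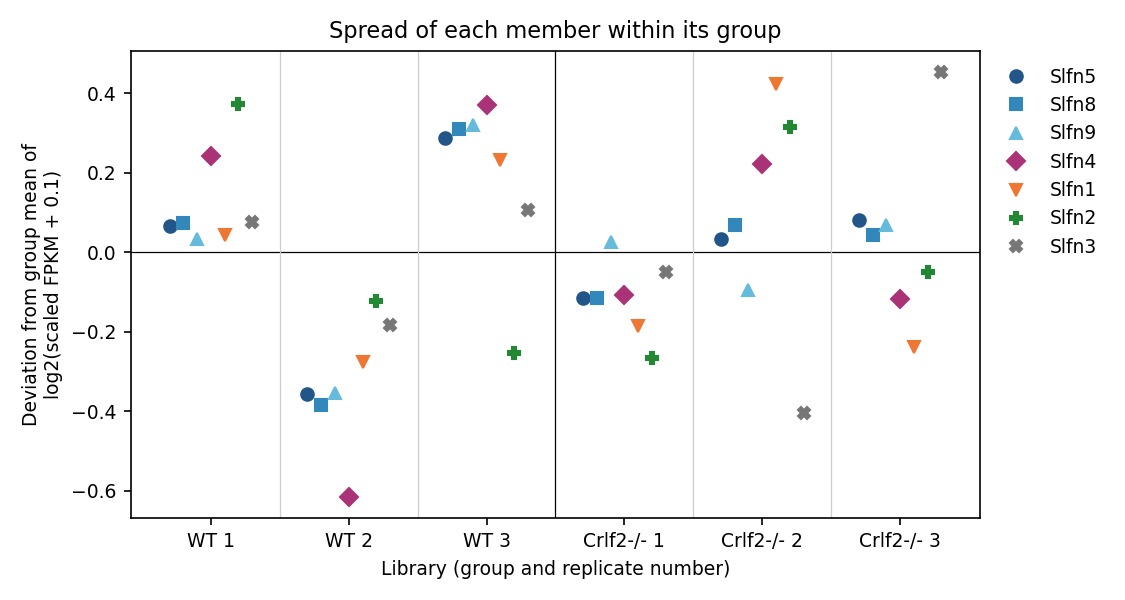
Deviation of each member from its group mean, on the scale of log2(scaled FPKM + 0.1), in each of the 6 libraries. Slfn5, Slfn8, Slfn9, Slfn4 and Slfn1 lie below 0 in WT replicate 2 and above it in WT replicate 3, whereas Slfn2 lies below 0 in both.

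The genes outside the family most like the most abundant members were sought over the 6 libraries among 15512 genes. For Slfn2 these were Acadsb, an enzyme of branched-chain amino acid breakdown (r = 0.997), Socs3, an inhibitor of cytokine signaling (r = 0.995), and the Fc receptor gene Fcgr1 of monocytes and macrophages (r = 0.994). For Slfn5 these were Trmt61b, a tRNA methyltransferase (r = 0.991), Oas2, an antiviral enzyme induced by interferon (r = 0.991), and the cadherin gene Cdh22 (r = 0.990). With 6 libraries, 31 genes reached an r above 0.95 with Slfn2 and 51 with Slfn5. Fcgr1 was at 30.3, 22.0 and 20.5 FPKM in WT and at 29.8, 45.7 and 33.3 FPKM in Crlf2-/- libraries, in the same order within each group as Slfn2.

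Because Schlafen genes are known as interferon targets, the interferon pathway was followed from ligand to effector. These lists were drawn up with earlier results of this contrast known, so their counts are descriptions. Ligands were barely detected. The 21 type I, II and III interferon genes together had 5 to 12 fragments per library in WT and 4 to 8 in Crlf2-/- mice, and 0 of them passed the filter on low genes. Ifng, the interferon of T and NK cells, had 7, 9 and 4 fragments in the WT libraries, against 3, 1 and 2 in the Crlf2-/- libraries, which is too few for a fold change.

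Among the receptors, Ifngr1 was lower in each Crlf2-/- library. Of 6 receptor genes, 1 had an unadjusted p under 0.05 (limma), Ifngr1, which binds interferon gamma. It was at 67.2, 63.0 and 65.4 FPKM in WT and at 51.4, 53.0 and 50.4 FPKM in Crlf2-/- libraries (log2 fold change -0.33, adjusted p = 0.461). Over all genes tested, 3.25% were lower and 3.3% were higher at this unadjusted p. The type I receptor genes Ifnar1 and Ifnar2 had log2 fold changes of -0.01 and 0.04.

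Of 12 signal transducers, 4 were higher in Crlf2-/- hearts at an unadjusted p under 0.05 (limma) and 0 were lower. Of all genes tested, 3.3% were higher and 3.25% lower at this p. Irf7, the factor that amplifies interferon responses, was at 16.0, 12.2 and 18.6 FPKM in WT and at 25.5, 53.9 and 46.7 FPKM in Crlf2-/- libraries. Its groups did not overlap, and its log2 fold change was 1.38 (SE 0.28, adjusted p = 0.223 from limma). Stat2 and Irf9, which encode transcription factors of the type I interferon response, had log2 fold changes of 0.74 and 0.50 (adjusted p = 0.255 for both from limma). The median of the 12 was 0.06. Of 6 tested genes listed as feedback inhibitors, 2 were higher at an unadjusted p under 0.05 (limma), where 3.3% of all genes tested were. They were Isg15 and Usp18, with log2 fold changes of 1.19 and 0.75.

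All 30 effectors were higher in Crlf2-/- than in WT hearts by their group means, with a median log2 fold change of 0.84 beside 0.78 for the Schlafen members. Of these, 29 had an unadjusted p under 0.05 (limma), where 3.3% of all genes tested were higher at this p. In 24 of the 30, every Crlf2-/- library lay above every WT library, where 5.24% of all genes tested did. Dhx58, a cytoplasmic RNA sensor, was at 4.26, 2.92 and 3.93 FPKM in WT and at 6.96, 9.17 and 8.45 FPKM in Crlf2-/- libraries (log2 fold change 1.14, SE 0.17, adjusted p = 0.112 from limma). Oasl2 and Oasl1, of the oligoadenylate synthetase family, had log2 fold changes of 1.07 and 1.17, and the RNA sensor Ifih1 had one of 0.90 (adjusted p = 0.135, 0.151 and 0.135 from limma). With adjustment over all genes, 0 of the tested interferon genes (6 receptors, 12 transducers, 6 inhibitors and 30 effectors) passed an adjusted p of 0.05 with an absolute log2 fold change of 0.5 in limma, and 0 passed with voom, where 0.0129% of all genes passed. Without Crlf2-/- replicate 1, Irf7 and Isg15 passed both thresholds (adjusted p = 0.0352 and 0.046 from limma). That library was the lowest of its group for both genes.

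**Figure D4:**
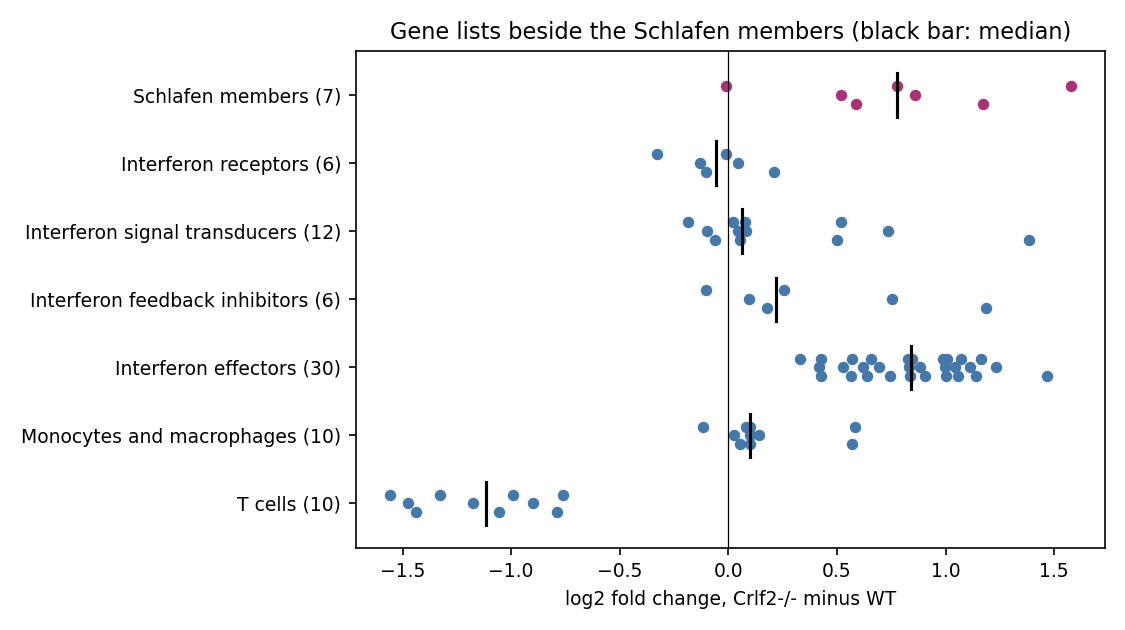
Log2 fold change (Crlf2-/- minus WT) of each tested gene in the Schlafen family, 4 interferon lists and 2 cell type marker lists, with the number of tested genes in brackets and the median as a black bar. All 30 effectors and 6 of 7 Schlafen members lie to the right of 0, and all 10 T cell markers lie to its left.

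Markers of the cells in which Schlafen genes are best known did not follow a single direction. The 10 T cell markers summed to between 19.7 and 27.9 FPKM in WT and between 10.1 and 12.0 FPKM in Crlf2-/- libraries. All 10 were lower, with a median log2 fold change of -1.11. In each of the 10 the WT values lay above all Crlf2-/- values, which held for 6.45% of all genes tested. Mean levels of Slfn1 and Slfn2 were higher in the Crlf2-/- hearts, with overlapping groups for Slfn2, and their cell source was not tested. The 10 monocyte and macrophage markers summed to between 1708 and 3119 FPKM in WT and between 1831 and 2648 FPKM in Crlf2-/- libraries. Most of each sum was Lyz2, at 2575, 1891 and 1313 FPKM in WT and at 2126, 1655 and 1398 FPKM in Crlf2-/- libraries. The median log2 fold change of the 10 was 0.10. Within that list 2 genes had an unadjusted p under 0.05 (limma) and higher values, where 3.3% of all genes tested did. They were Ly6c2 and Fcgr1, with log2 fold changes of 0.57 and 0.58. The 10 cardiomyocyte markers had a median of -0.87. The part of these cell types in the Schlafen values was not tested.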

How the data were processed

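RNA of 3 WT and 3 Crlf2-/- hearts was sequenced by the study. The authors trimmed reads, aligned them with Hisat2 2.0.5, counted fragments with featureCounts and deposited FPKM per gene and library. The submitters' notes name mm10, and the start and end of all 7 members equal those of GENCODE M21 (GRCm38). The extraction text of the labels names another tissue, whereas the tissue label and the paper say heart. FPKM times the deposited gene length, a number of bases, gave whole fragments for 100% of nonzero values (within 0.02 of a whole number), and 0 columns of other samples were present.

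Trimmed-mean-of-M-values factors from these fragments rescaled the FPKM. A gene needed 10 or more fragments in 3 or more libraries, and 15 or more over all libraries, which left 15520 genes. log2(FPKM + 0.1) was fitted with limma 3.58.1 in R 4.3.3 (trend and robust), with Benjamini-Hochberg adjustment, and a gene was called when its adjusted p was 0.05 or lower and its log2 fold change 0.5 or more in either direction. On this log2(FPKM + 0.1) scale, changes of low genes are understated. FPKM and their means are as deposited. The fit was tested on simulated fragments. Counting error was not separated from the spread between mice.

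The members, the gene lists and the tests were chosen with earlier results of these data known. Named genes were the members, other Schlafen genes, Crlf2, up to 4 genes per interferon list with the smallest p, the 3 genes most like each of the 2 most abundant members, and leading cell type markers. A result for 1 gene that this rule names is not reported here. Actc1, Ly6c2, Fcgr1 as a marker, Ccl5, Gm11425, Gm20234, Ifng, Ifnar1, Ifnar2, Ly6g and Ddit3 were named after their values were seen. Protein sequences were not used here, and coding sequences of GENCODE M21 were compared in their place. Python 3.11.15 was used for other steps.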

Additional observations from a re-analysis of the deposited data

How the results depend on the processing

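The log2 fold changes of the 7 members were recomputed under 13 other settings, 91 comparisons in all, and each moved by less than the spread between mice. Leaving out a library can hardly move a value by more than that spread, so this says little for those settings. Another filter on low genes, or the replicate number as a block, leaves these log2 fold changes exactly as they were. Agreement under those settings was therefore fixed in advance. Without WT replicate 2, Slfn4 moved by more than its SE, from 1.17 (SE 0.25) to 0.86. Leaving out each library in turn gave 1.36 to 1.69 for Slfn1, 0.36 to 0.71 for Slfn2, -0.24 to 0.19 for Slfn3, 0.86 to 1.36 for Slfn4, 0.41 to 0.73 for Slfn5, 0.59 to 0.93 for Slfn8 and 0.68 to 1.02 for Slfn9. Slfn3 changed sign among these, and with pseudocounts of 0.01 and 1 and the like it ranged from -0.02 to 0.003. The number of members whose groups did not overlap was 5 of 7 in each setting with all libraries. Of all genes tested, 5.24% had every Crlf2-/- library above every WT library. The filters on low genes could not change this count and the rescaling was slight, so its constancy says little. It was 6 without WT replicate 1 or without Crlf2-/- replicate 1, and 5 with any other library left out. With fewer libraries, groups are more easily apart. The median r between members was 0.47 on deviations from the group means. Without its last A, the response element was found in the same 3 members, but also in 8.56% of all windows, where the full element was in 3.44%.

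The number of genes called was 2 and became 6 with no filter, 1 with at least 10 fragments in every library and 1 to 15 with a library left out (15 without Crlf2-/- replicate 1 and 7 without WT replicate 3). The number of interferon genes called was 0 and ranged from 0 to 2 with a library left out. The cause was not tested. With the replicate number as a block, 4 genes were called in all, 0 of them in the interferon lists. Between WT and Crlf2-/- libraries of one number, deviations from the group mean had r of -0.02, 0.12 and 0.12 over all genes, so a shared number was not read as pairing. Values of Slfn3, Slfn10-ps and the interferon ligands are limited by few fragments.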

Other observations

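Marker lists of further cell types were read beside the Schlafen family, by their tested genes and summed FPKM. The dendritic cell list had 7 of 8 genes lower and a median log2 fold change of -0.31, with sums of 15.7 to 20.9 FPKM in WT and 9.97 to 16.1 FPKM in Crlf2-/- libraries. NK cell markers had a median of 0.11 over 7 genes, of which 4 were higher and 3 lower. Their sums were nonetheless lower in Crlf2-/- libraries, at 4.43 to 7.51 FPKM, against 7.58 to 7.80 FPKM in WT. The largest part of each sum was Gzma, at 3.97, 4.22 and 4.27 FPKM in WT and at 2.64, 2.05 and 2.51 FPKM in Crlf2-/- libraries. The lower sums thus do not describe the list as a whole. B cell markers had a median of 0.06 over 8 genes, with overlapping sums. Of 10 neutrophil markers, 6 were tested, with a median of 0.02 and overlapping sums, and the defining marker Ly6g was at 0 in 5 of 6 libraries. Fibroblast markers had a median of -0.04 and endothelial markers one of -0.12. All 10 proliferation genes had higher means on the fitted scale in Crlf2-/- hearts, with a median of 0.15. At an unadjusted p under 0.05 in limma 1 of them was higher, where 3.3% of all genes tested were.

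Schlafen proteins act on tRNA, so genes of tRNA cleavage and of the stress response to halted translation were read too. Of 12 tested, 7 were higher and 5 lower in Crlf2-/- hearts by the sign of the log2 fold change, with a median of 0.09. The stress gene Ddit3 had the smallest p, with a mean of 9.23 ± 0.899 FPKM (SD, n = 3) for WT hearts, against 7.27 ± 0.586 FPKM (SD, n = 3) for Crlf2-/- hearts (adjusted p = 0.568 from limma). The adjusted p of the other 11 was higher.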
